A study of Mus musculus with 10 samples.

Results

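The BCL2 family sets the threshold at which a cell dies through its mitochondria, and its 10 regulators described here were Bcl2, Bcl2l1, Mcl1, Bax, Bak1, Bid, Bbc3, Pmaip1, Bcl2l11 and Hrk. They were chosen by symbol out of 24736 gene symbols in a table of eyeball mRNA, with earlier results of these data known. All 10 passed the low-count filter that left 18988 genes for testing. RNA came from eyeballs of Kunming mice, which are outbred; the labels give females at 4 weeks of age, and every sample title carries day 14. Controls were kept in natural light, and the other mice were exposed to blue light from an 18 W lamp inside a dark container. In each assay, mRNA or miRNA, there were 2 control libraries (control A and B) and 3 blue light libraries (blue A, B and C). The labels name no genotype, drug or transgene, and they do not say whether each library is a different mouse. The p-values therefore weigh the difference between the groups against the scatter of these libraries, and that scatter may be technical.

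The proteins fall into 3 classes. BCL2, BCL-XL (from Bcl2l1) and MCL1 hold the outer mitochondrial membrane closed, BAX and BAK (from Bak1) are the effectors that open it and release cytochrome c, and the BH3-only proteins BID, PUMA (Bbc3), NOXA (Pmaip1), BIM (Bcl2l11) and Harakiri (Hrk) carry death signals to them. Much of this control acts on the proteins, through binding, cleavage, phosphorylation and degradation, and is not seen in mRNA, but several BH3-only genes are also switched on by transcription. In the retina, Bax is known to be needed for the death of ganglion cells after injury to the optic nerve.

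Levels are given as CPM, estimated counts relative to a common library total, normalised by the trimmed mean of M-values (TMM). They are not divided by transcript length, so levels are compared between libraries for each gene and not between genes. Changes are log2 fold changes (log2FC), blue light minus natural light, with the standard error (SE) and 95% interval of edgeR's quasi-likelihood test, and n = 2 control and n = 3 blue libraries throughout. Adjusted p-values are from that test with Benjamini-Hochberg adjustment over all tested genes, and a gene is said to have risen or fallen where the adjusted p was under 0.05. The mRNA libraries summed to between 87071487 and 107660103 units and the miRNA libraries to between 8355432 and 10875487 counts. The tissue label was checked by the summed rod, lens and glial markers given below. Gfap, a filament of reactive glia, was at 15.4 ± 3.71 CPM in the controls and 139 ± 18.9 CPM under blue light (log2FC 3.17, SE 0.20, adjusted p = 0.0118). In a whole eyeball, fewer cells of a type and less RNA per cell cannot be told apart.

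The comparison asked whether the mRNA of these regulators in the eye differed between blue light and natural light. The blue light, its lamp and the dark container came together, so their parts cannot be told apart. None of the 10 members passed the threshold, where 421 of 18988 genes (2.22%) did. Their adjusted p-values ran from 0.304 to 0.956. Of the members, 7 had a positive and 3 a negative log2FC, and their median was 0.17 beside -0.0056 over all tested genes. By unadjusted p under 0.05 edgeR picked 1 member, Bbc3, where 16.3% of all tested genes met that mark. Bbc3 ranked 3053 of 18988 by p. DESeq2 called 0 members, with Bbc3 and Bax at an unadjusted p under 0.05, and limma-voom called 0, with 0 at that mark. All 3 blue libraries lay above both controls for 4 members (Bcl2, Mcl1, Bax and Bbc3), which is 40.0% of them beside 15.6% of all tested genes. No member had all blue libraries below both controls, beside 20.1% of all tested genes.

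**Figure D1:**
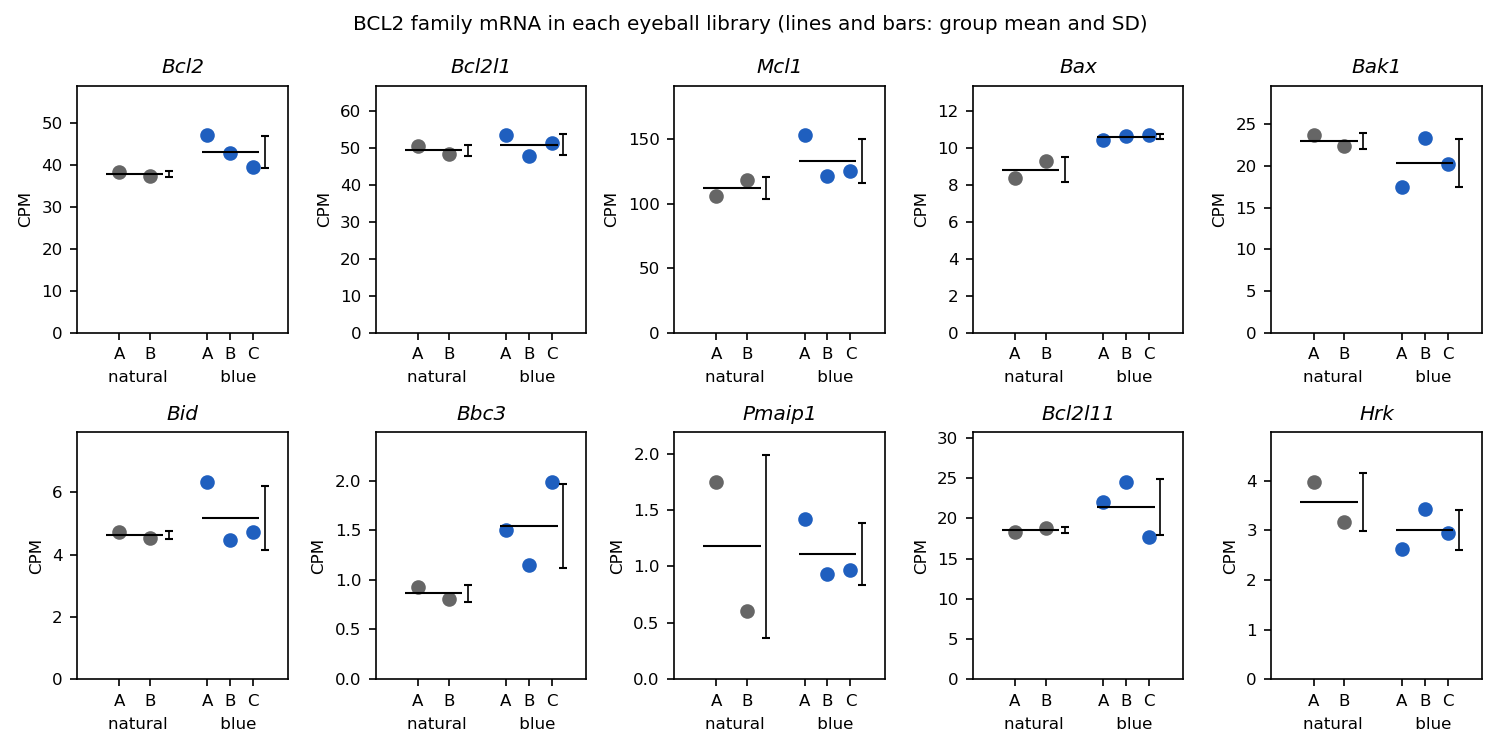
TMM-normalised CPM (y axis, from 0) of each of the 10 BCL2 family members in the control libraries A and B (grey) and the blue light libraries A, B and C (blue). Horizontal lines are group means and vertical bars are ± SD; the blue points lie above both grey points for Bcl2, Mcl1, Bax and Bbc3, and the groups overlap for the other members.

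Among the antiapoptotic members, Bcl2 (chromosome 1, 106538176 to 106714290, mm10), the founding member of the family, stood at 38.4 and 37.4 CPM in control A and B and at 47.1, 42.9 and 39.5 CPM in blue A, B and C. The groups did not overlap, but the lowest blue library was close to the controls. The log2FC was 0.19 (SE 0.097, 95% interval -0.051 to 0.43, adjusted p = 0.414). Mcl1 (chromosome 3, 95656944 to 95663179) encodes a protein with a short life in the cell, so that its amount follows its synthesis closely. Its mRNA was at 106 and 118 CPM in the controls and at 153, 121 and 125 CPM in blue A, B and C. Blue A stood apart from the other blue libraries, which were near control B. The log2FC was 0.25 (SE 0.12, 95% interval -0.058 to 0.55, adjusted p = 0.401).

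Bcl2l1 (chromosome 2, 152758732 to 152833803) makes the long protein BCL-XL, which protects the cell, and a short form that promotes death. The table gives a single value for the gene and so does not separate these forms. Its values were 50.4 and 48.3 CPM in the controls against 53.4, 47.9 and 51.4 CPM in blue A, B and C. The groups overlapped, and this was the narrowest interval of the 10 members. The log2FC was 0.044 (SE 0.081, 95% interval -0.15 to 0.24, adjusted p = 0.847), so that the linear ratio of blue to natural light lay between 0.899 and 1.18.

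The 2 effectors had log2FC of opposite sign. Bax (chromosome 7, 45461695 to 45466903) stood at 8.35 and 9.29 CPM in the controls and at 10.5, 10.7 and 10.7 CPM in blue A, B and C. The blue libraries were close together, with a coefficient of variation of 1.25% beside 7.53% between the controls, and all were above both controls. The log2FC was 0.27 (SE 0.12, 95% interval -0.019 to 0.55, adjusted p = 0.335). Bak1 (chromosome 17, 27019812 to 27028627), whose protein sits in the outer membrane already in healthy cells, was at 23.7 and 22.3 CPM in the controls and at 17.5, 23.3 and 20.3 CPM in blue A, B and C. Blue A was the lowest, while blue B lay between the controls. The log2FC was -0.18 (SE 0.14, 95% interval -0.52 to 0.16, adjusted p = 0.601).

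The BH3-only members held both the highest estimate and the widest interval. Bbc3 (chromosome 7, 16308398 to 16318334) encodes PUMA, a target of p53 that can bind every antiapoptotic member of the family. It was a weakly detected mRNA, at 0.925 and 0.803 CPM in the controls against 1.50, 1.15 and 1.99 CPM in blue A, B and C. All blue libraries were above both controls, with blue C highest and blue B nearest to the controls. The log2FC of 0.84 (SE 0.34, 95% interval 0.0056 to 1.67) corresponds to a linear ratio of 1.79. It had an unadjusted p = 0.0489 and an adjusted p = 0.304 in edgeR's test over all genes, and adjusted p-values between 0.194 and 0.834 in the alternatives run.

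Bcl2l11 (chromosome 2, 128126038 to 128162547) encodes BIM, a direct activator of BAX and BAK that is regulated by FOXO factors. It was at 18.3 and 18.8 CPM in the controls and at 22.1, 24.6 and 17.7 CPM in blue A, B and C. Blue A and B were above both controls and blue C below them. The log2FC was 0.21 (SE 0.15, 95% interval -0.17 to 0.59, adjusted p = 0.578).

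Bid (chromosome 6, 120893119 to 120917062) encodes the protein that caspase-8 cleaves, which links death receptors to mitochondria. Its values were 4.73 and 4.54 CPM in the controls against 6.33, 4.47 and 4.71 CPM in blue A, B and C. Only blue A was above both controls, and the log2FC was 0.16 (SE 0.21, 95% interval -0.35 to 0.67, adjusted p = 0.769).

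Hrk (chromosome 5, 118169764 to 118189478), whose BH3-only product is known mainly from neurons, was at 3.98 and 3.16 CPM in the controls and at 2.63, 3.44 and 2.94 CPM in blue A, B and C. The groups overlapped through blue B. The log2FC was -0.25 (SE 0.22, 95% interval -0.78 to 0.28, adjusted p = 0.641). Pmaip1 (chromosome 18, 66458604 to 66465558) encodes NOXA, which binds mainly MCL1. It was at 1.75 and 0.606 CPM in control A and B and at 1.43, 0.931 and 0.967 CPM in the blue libraries. The controls differed by 2.89-fold and enclosed all blue libraries, so that the log2FC of -0.095 (SE 0.50, 95% interval -1.34 to 1.15, adjusted p = 0.956) left the direction undetermined. It was -0.66 to 0.90 with 1 library left out, positive without control A or blue B, and negative without control B, blue A or blue C.

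**Figure D2:**
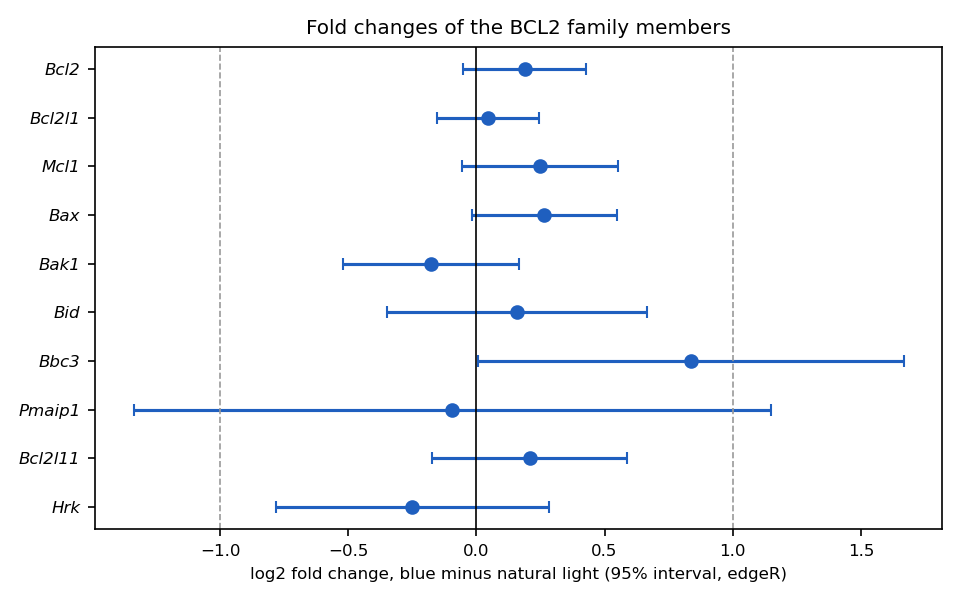
Log2 fold change (x axis, blue minus natural light) of each member with its 95% interval from edgeR; the dashed lines mark a 2-fold change in either direction. The intervals of 8 members lie inside these lines, those of Bbc3 and Pmaip1 cross them, and all but that of Bbc3 hold 0.

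The intervals set how large a change these libraries allow. For 8 of the 10 members the whole interval lay within a 2-fold change in either direction. For 5 of them, the 3 antiapoptotic members and both effectors, it lay within a 1.5-fold change. The exceptions to the 2-fold limit were Bbc3 and Pmaip1. For Bbc3 the interval of the linear ratio ran from 1.004 to 3.17, and for Pmaip1 from 0.396 to 2.22.

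The balance of effector to protector was followed as a log2 ratio of CPM within each library, with no test. It serves only to compare libraries, since transcript length was not taken into account. Control A and B had Bax over Bcl2 at -2.20 and -2.01, and blue A, B and C had it at -2.17, -2.01 and -1.89, with overlapping groups. Bax over Bcl2l1 stood at -2.59 and -2.38 under natural light; blue A, B and C, at -2.35, -2.17 and -2.27, were all higher, blue A by little. Bak1 over Mcl1 stood at -2.17 and -2.40 in the controls, against -3.13, -2.38 and -2.62 in blue A, B and C. Here blue B lay between the controls and blue A was far below them, being the library with the highest Mcl1 and the lowest Bak1.

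Extremes were spread over the libraries. Control A had the highest value for 3 members (Bak1, Pmaip1 and Hrk) and the lowest for 2 (Mcl1 and Bax). Blue A had the highest value for 4 members (Bcl2, Bcl2l1, Mcl1 and Bid) and the lowest for 2 (Bak1 and Hrk). The same count was not made over all tested genes. Blue A also had the lowest summed level of 18 rod markers, at 6270 CPM. This sum was 11094 and 8858 CPM in blue B and C and 31358 and 29484 CPM in the controls. The sum of 14 microglia and macrophage markers was highest in blue A, at 483 CPM. It was 316 and 336 CPM in blue B and C and 158 and 228 CPM in the controls. Without blue A no member passed the threshold and all 10 log2FC kept their sign, but Mcl1 was at 0.15, Bid at 0.0052 and Bak1 at -0.061.

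Of the cell type markers, 15 of 18 rod genes fell, 12 of 12 reactive glia genes rose and 4 of 12 Müller glia genes rose. The Müller glia list was mixed. It held 10 genes with a positive log2FC, all at an unadjusted p under 0.05 in edgeR, and 2 with a negative log2FC, 1 of them at that mark. Of the microglia and macrophage genes, 0 of 14 passed the threshold (10 had an unadjusted p under 0.05). Over all tested genes, 2.22% passed it. The marker lists were chosen with earlier results of these data known, so these counts describe the lists and test nothing. No marker of these lists was at 0 in every library. The summed level of 12 reactive glia markers ran from 207 to 224 CPM in the controls and from 803 to 895 CPM under blue light, and that of 12 Müller glia markers from 4100 to 4257 and from 5206 to 5731 CPM. For 9 endothelial markers it ran from 375 to 399 and from 483 to 511 CPM. Of these 9 genes, 0 passed the threshold, 1 had an unadjusted p under 0.05 in edgeR, and 3 had all blue libraries above both controls. The sum of 16 lens markers ran from 40217 to 41268 CPM in the controls and from 40820 to 43553 CPM under blue light. The sum of 14 skeletal muscle markers did not follow the light, at 2440 and 4925 CPM in the controls against 5083, 2384 and 2341 CPM in blue A, B and C. Some members were ordered across the libraries like a marker sum, which was looked for after the values were seen. Mcl1 had the same order over all 5 libraries as the microglia and macrophage sum, and so did the Müller glia and adipocyte sums. Bak1 and Hrk had, within each light group, the same order as the rod sum and the cone sum. By that same rule Bcl2 matched the sum of neutrophil markers, Bcl2l11 the reactive glia sum and Bbc3 the lens sum. With few libraries and many pairs of member and list, such matches can arise by chance. The part of these cell types in the values of the members was not tested.

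**Figure D3:**
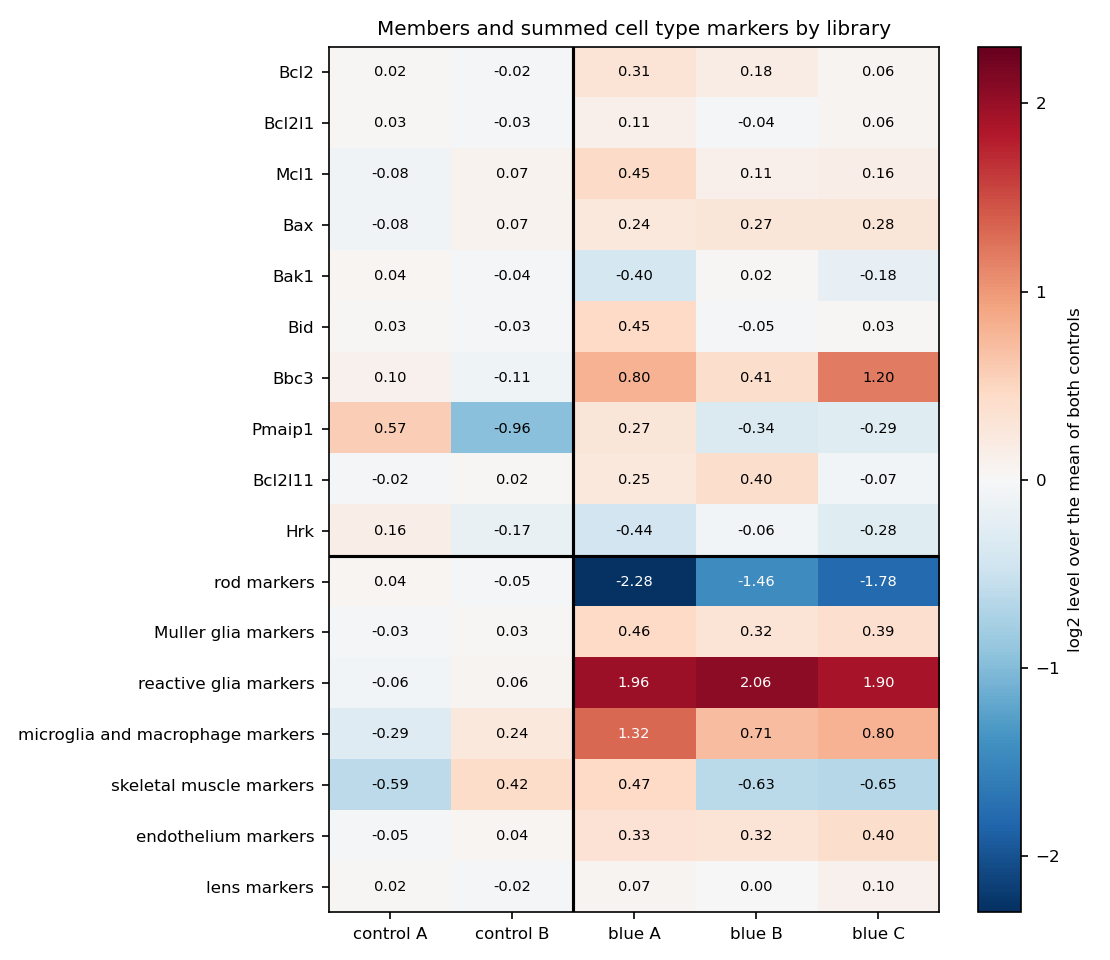
Log2 level of each member (upper block) and of each summed marker list (lower block) in every library, relative to the mean of both controls, as colour and as a printed value. Most members stay within 0.5 of the controls, with Bbc3 reaching 1.20 in blue C, while the rod markers lie between -2.28 and -1.46 and the reactive glia markers between 1.90 and 2.06 in the blue libraries.

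Of the members, 6 shared no stretch of the genome with another gene of the table, and 4 did: Bcl2 with Mir3473f, Bcl2l1 with Cox4i2, Bak1 with Ggnbp1 and Bcl2l11 with Acoxl. These neighbours were at 3.72 CPM or less in the control mean, so that summing each pair left the log2FC at 0.19 for Bcl2, 0.0070 for Bcl2l1, -0.15 for Bak1 and 0.19 for Bcl2l11. Whether reads were counted by strand is not stated.

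Promoter windows, 250 bases before to 50 after an annotated start, were held by RefSeq (GRCm38.p6) for 9 members, as 14 windows. Their median GC content was 65.67%, beside 52.67% over all 32851 windows. The GC box GGGCGG, searched on both strands like every motif here, was found in 10 of the 14 windows, which belong to 7 of the 9 members, and in 35.7% of all windows. TATAAA was found in 0 of the members' windows and in 13.6% of all windows, TGANTCA in 0 and 7.81%, and TTCNNNGAA in 0 and 8.30%. CCAAT was found in 3 of the 14 windows, of Bbc3 and Bcl2l11, and in 37.4% of all windows, and CACGTG in 2 of the 14, of Bax and Bbc3, and in 7.15%.

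The FOXO core TGTTTAC, which 3.65% of all windows hold, was found in 2 of the 14 windows, of Bbc3 and Bcl2l11, both of which are BH3-only genes described as FOXO targets. The stretches are shown because Foxo1 and Foxo3 are among the upstream factors measured below. Capitals mark the match, which starts 227 bases before the annotated start of Bcl2l11 (chr2:128125800-128125829, plus strand, match on the reverse strand, inside the annotated span of Acoxl) and 167 bases before a start of Bbc3 (chr7:16310083-16310112, plus strand, inside the annotated span of Bbc3).
Bcl2l11: aagacactaggGTAAACAcgccggggtggg
Bbc3: tctggcgggttTGTTTACaaacaatggggt
A match of letters is a description and not a binding site.

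The other genes of the pathway were taken from fixed lists. Of 16 further BCL2 homologues, 0 passed the threshold, with 1 at an unadjusted p under 0.05 and a median log2FC of 0.068; DESeq2 and limma-voom also called 0. The homologues with the smallest p were Bmf and Bcl2a1a. Bmf, a BH3-only gene whose protein can be held at the cytoskeleton, was at 15.3 and 13.1 CPM in the controls and 21.2, 16.7 and 18.3 CPM in the blue libraries (log2FC 0.40, SE 0.14, adjusted p = 0.248). Bcl2a1a, an antiapoptotic gene of blood cells, was at 0.126 and 0.0618 CPM and at 0.604, 0.158 and 0.362 CPM (log2FC 1.96, SE 0.80, adjusted p = 0.308). Bcl2a1a has near-identical copies in the mouse genome, between which reads may be split, so its value is uncertain.

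Downstream of the mitochondria, Xiap was the gene of 19 in the execution list that passed the threshold, and the median of the list was 0.037. XIAP is an inhibitor that binds and blocks caspases. Its mRNA (chromosome X, 42059613 to 42109664) was at 379 and 344 CPM in the controls and at 198, 227 and 214 CPM in blue A, B and C. The groups were far apart, and the log2FC was -0.76 (SE 0.087, adjusted p = 0.0217), a linear ratio of 0.589. The direction held in all 15 alternatives run, with log2FC between -0.83 and -0.67, and the call was lost in 6 of them, among which were library totals as the scaling, the share of the ribosomal transcript Rn45s as a covariate, and the fits without control A, control B or blue C. The adjusted p ran from 4.46e-10 to 0.332.

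Of 12 genes of the death receptor route, which reaches the family through cleavage of BID, Faim fell and the others did not pass the threshold, with a median of 0.14. FAIM inhibits death signalled through Fas. Its mRNA (chromosome 9, 98986373 to 99002019) was at 51.3 and 50.3 CPM in the controls and at 23.8, 24.2 and 24.3 CPM in the blue libraries. The spread within each group was small beside the gap between them (log2FC -1.08, SE 0.070, adjusted p = 0.0118). The log2FC stayed between -1.09 and -1.03 in 15 alternatives, and the call was lost in 5 of them, with adjusted p-values from 8.73e-36 to 0.244; among these were the Rn45s covariate and the fits without control A, control B or blue C. DESeq2 also called Tnfrsf1a, the receptor of tumour necrosis factor (log2FC 0.62, adjusted p = 0.0170 in DESeq2; adjusted p = 0.187 in edgeR).

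Among 16 upstream transcription factors and their regulators, Stat3 rose and Atf4 fell, with a median of 0.10. Stat3, an activator of Bcl2l1 and Mcl1 in many cells, is on chromosome 11 (100886806 to 100939594) and also belongs to the reactive glia markers above. It was at 82.1 and 88.3 CPM in the controls and at 189, 238 and 206 CPM in the blue libraries (log2FC 1.31, SE 0.12, adjusted p = 0.0159). Its call was lost in the same 5 alternatives as that of Faim, with adjusted p-values from 1.95e-21 to 0.237. Bcl2l1 and Mcl1, set beside it, had log2FC of 0.044 and 0.25.

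Atf4, the transcription factor of the integrated stress response, is on chromosome 15 (80255184 to 80257545). It was at 177 and 168 CPM in the controls and at 121, 131 and 131 CPM under blue light (log2FC -0.43, SE 0.072, adjusted p = 0.0479). It stood just inside the threshold, and the call was lost in 10 of 15 alternatives, each of the fits that left out a library among them, with adjusted p-values from 6.97e-05 to 0.545. DESeq2 also called E2f1 of this list, an activator of cell cycle and BH3-only genes (log2FC 0.73, adjusted p = 0.00871 in DESeq2), which edgeR did not call (adjusted p = 0.152). Trp53, the gene of p53, which activates Bbc3, Pmaip1 and Bax, was at 28.0 and 26.5 CPM in the controls and at 29.2, 29.4 and 28.8 CPM under blue light (log2FC 0.097, SE 0.079, adjusted p = 0.616). Foxo3 was at 71.9 and 67.6 CPM and at 57.2, 59.6 and 59.7 CPM (log2FC -0.24, SE 0.072, adjusted p = 0.179), and Foxo1 had a log2FC of 0.061 (SE 0.067, adjusted p = 0.719). The choice of these 3 genes was made with their values known.

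Of 20 partners and modifiers of the family, Moap1 passed the threshold, and the median was -0.010. MOAP1 is a partner of BAX that responds to death receptors. It was at 15.8 and 12.8 CPM in the controls and at 0.0594, 0.0279 and 0.0879 CPM in the blue libraries (log2FC -7.93, SE 0.37, adjusted p = 0.0115). This value is uncertain, because Moap1 (chromosome 12, 102739830 to 102743661) overlaps Gm20604, which went from a mean of 8.20 to 22.4 CPM. With both summed, the log2FC was -1.4e-06 (SE 0.095, adjusted p = 1.0), so that the sum did not pass the threshold. The call of Moap1 itself was also lost with the replicate block and without control A or control B. Fbxw7, part of the ligase that marks MCL1 for degradation, was called by DESeq2 and by limma-voom (adjusted p = 0.0469 in limma-voom) but not by edgeR, at 71.7 and 72.9 CPM in the controls and at 96.4, 100.3 and 92.6 CPM under blue light (log2FC 0.42, SE 0.072, adjusted p = 0.0537).

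**Figure D4:**
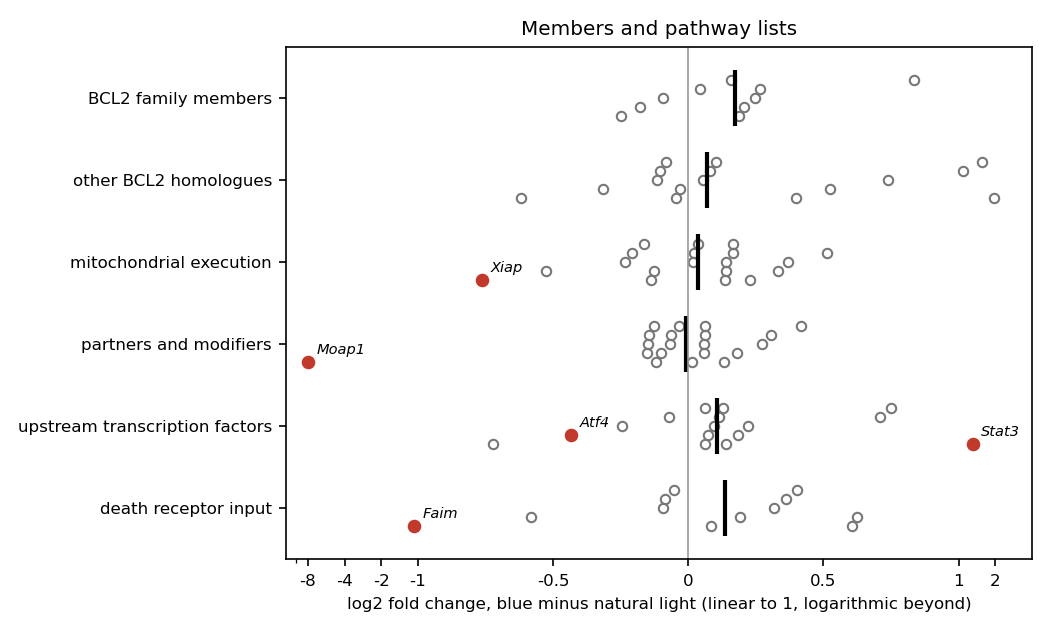
Log2 fold change (x axis, blue minus natural light, linear to 1 and logarithmic beyond) of every tested gene of the BCL2 family members and of 5 pathway lists; filled red points passed an adjusted p of 0.05, open points did not, and vertical bars are list medians. The 10 members hold no filled point, and the 5 filled points of the other lists are Xiap, Moap1, Atf4, Stat3 and Faim.

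The miRNA libraries were read for 36 miRNAs from families reported to repress a member, and 35 of them matched a mature sequence in RefSeq (GRCm38.p6). Repression by a miRNA rests on pairing of its seed, bases 2 to 8, with the target mRNA. The sequences of the families with the smallest p-values are shown because members of a family share that seed, given in capitals.
miR-34a-5p: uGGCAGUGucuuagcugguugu
miR-34b-5p: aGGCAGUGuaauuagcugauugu
miR-17-5p: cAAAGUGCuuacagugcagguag
miR-20a-5p: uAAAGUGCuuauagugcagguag
miR-20b-5p: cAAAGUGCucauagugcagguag
miR-93-5p: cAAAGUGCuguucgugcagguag
miR-106b-5p: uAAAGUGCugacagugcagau
miR-92a-3p: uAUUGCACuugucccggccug
miR-92b-3p: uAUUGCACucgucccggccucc
miR-29a-3p: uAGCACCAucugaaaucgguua
Family members differ by few bases, and the rule that assigned reads between them is not stated, so single values within a family are uncertain.

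None of the 36 passed the threshold, where 4 of 641 tested miRNAs (0.624%) did. These 4, miR-146b-5p (log2FC 1.63, SE 0.21) and miR-146b-3p (2.31, SE 0.33), which were higher, and miR-183-5p (-1.13, SE 0.16) and miR-96-3p (-1.26, SE 0.19), which were lower, are not on the list. Of the 36, 20 had a positive and 16 a negative log2FC, beside 326 and 315 of all tested miRNAs. An unadjusted p under 0.05 was found for 6 of the 36, all with a positive log2FC, and for 76 of 641 tested miRNAs (11.9%), 34 with a positive and 42 with a negative log2FC. The smallest p was that of miR-34a-5p, which p53 induces and which is reported to repress Bcl2. It was at 49.9 and 39.6 CPM in the controls and at 58.5, 83.2 and 77.1 CPM in blue A, B and C (log2FC 0.71, SE 0.22, adjusted p = 0.276). The groups did not overlap, and blue A was nearest to the controls. Its seed partner miR-34b-5p had overlapping groups (log2FC 0.43, SE 0.26, adjusted p = 0.569), as had miR-34c-5p (log2FC 0.15, SE 0.22, adjusted p = 0.862).

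Several families are reported to repress Bcl2l11. In the miR-17 family, all 5 log2FC were positive and 4 had all blue libraries above both controls, as had 14.8% of all tested miRNAs. In this family, named with its values known, miR-17-5p was at 219 and 237 CPM in the controls and at 257, 362 and 485 CPM in blue A, B and C (log2FC 0.69, SE 0.26, adjusted p = 0.337). miR-20a-5p (log2FC 0.70, SE 0.25) and miR-93-5p (0.63, SE 0.23) had the same adjusted p, and miR-106b-5p was at 0.19 (SE 0.17, adjusted p = 0.756). In all of the first 3, blue A was the lowest blue library and blue C the highest.

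The miR-92 seed family held both signs. miR-92b-3p was at 111 and 103 CPM in the controls and at 175, 162 and 137 CPM in the blue libraries (log2FC 0.57, SE 0.19, adjusted p = 0.276). Its near copy miR-92a-3p had all blue libraries below both controls (log2FC -0.26, SE 0.16, adjusted p = 0.586). miR-17-5p, miR-20a-5p and a copy of miR-92a-3p lie together on chromosome 14, between 115043684 and 115044496, and miR-93-5p, miR-106b-5p and miR-25-3p together on chromosome 5, between 138165332 and 138165807. miR-25-3p had a log2FC of -0.23 (SE 0.17, adjusted p = 0.650), so that neighbours within each group had estimates of both signs; the differences between neighbours were not tested.

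miR-29a-3p, of a family reported to repress Mcl1, was at 4865 and 5284 CPM in the controls and at 6086, 7391 and 7027 CPM in the blue libraries (log2FC 0.43, SE 0.15, adjusted p = 0.332). With the same seed, miR-29b-3p was at 0.11 (SE 0.23) and miR-29c-3p at -0.12 (SE 0.18). The 9 let-7 family miRNAs, reported to repress Bcl2l1, had log2FC between -0.067 and 0.21, and the 5 of the miR-15/16 family, reported to repress Bcl2, between -0.13 and 0.33. The 4 miR-181 miRNAs were all slightly negative, between -0.28 and -0.076. With no filter on low counts, 4 listed miRNAs passed the threshold, all higher under blue light: miR-20a-5p (adjusted p = 0.0133), miR-17-5p (0.0187), miR-34a-5p (0.0286) and miR-93-5p (0.0481). In the other alternatives 0 passed.

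**Figure D5:**
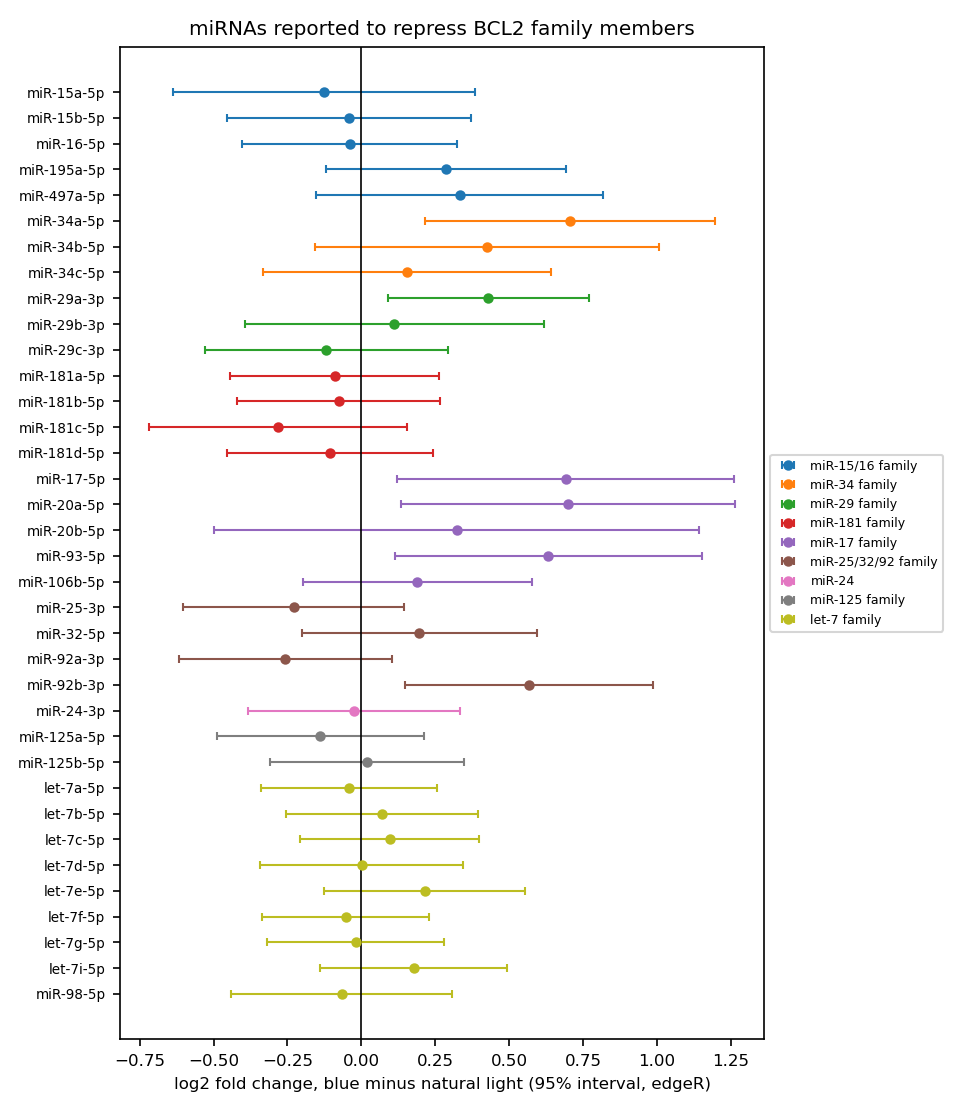
Log2 fold change (x axis, blue minus natural light) with the 95% interval from edgeR for each of 36 miRNAs reported to repress BCL2 family members, coloured by family. The intervals of miR-34a-5p, miR-29a-3p, miR-17-5p, miR-20a-5p, miR-93-5p and miR-92b-3p lie above 0 and those of the others hold 0.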

How the data were processed

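Eyeball mRNA and miRNA were measured in 2 control and 3 blue light libraries each. The deposited mRNA values are estimated counts that the authors left without normalisation, with a row for each gene symbol; they are whole numbers in the table, so no rounding was needed, and their low values are uneven, so no counting intervals were given. The deposited miRNA values are counts, also left by the authors without normalisation, with a row for each mature miRNA. Tools listed in the submitters' processing notes are HISAT2, StringTie, bcl2fastq 2.0, limma and DESeq2, and the build is mm10; their roles, strand settings and the miRNA counter are not stated. Per the labels' protocols, ribosomal RNA was removed and the RNA was primed at random.

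Groups were compared with edgeR 4.0.16 in R 4.3.3 (TMM, filterByExpr by group, quasi-likelihood F-test, Benjamini-Hochberg adjustment over all tested genes, threshold 0.05). SE is the absolute log2FC over the square root of F. The pipeline was also run on simulated counts, drawn with the dispersion fitted to these data and with changes of 2-fold or more. Smaller changes were not simulated. Alternatives were DESeq2's size factors, library totals, TMM without lens, muscle and red blood cell markers, a minimum mean CPM of 5 or no filter, limma-voom (limma 3.58.1), DESeq2 1.42.0, the letter as a replicate block, the Rn45s share as a covariate, each library left out, and overlapping genes summed. For Xiap, Moap1, Atf4, Stat3 and Faim these were added after the data were seen.

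The members and lists were chosen with earlier results of these data known. The rule for names took all members and the pathway genes past the threshold (or the 2 with the smallest p where none passed). Of the miRNAs it took those past the threshold, and of the listed ones the 3 with the smallest p where none passed. Some other names are marked as chosen after their values were seen. Tnfrsf1a, E2f1, Fbxw7 and the remaining listed miRNAs that are named fall outside this rule too, without such a mark. Some genes are not reported here. No columns were left unused (0), no pair of libraries was identical (0), and Spearman correlations between libraries lay within 0.980 to 0.989 (mRNA) and 0.905 to 0.914 (miRNA).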

Additional observations from a re-analysis of the deposited data

How the results depend on the processing

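The count of 0 called members did not change in any of the 14 alternatives run, and 0 to 2 members had an unadjusted p under 0.05. The log2FC of every member but Pmaip1 kept its sign in all alternatives; for Pmaip1 it was 0.15 with the replicate block, 0.36 with the Rn45s share as covariate, 0.90 without control A and 0.033 without blue B, from -0.66 to 0.90 over the fits with 1 library left out. The cause was not tested. Bid, Bbc3, Pmaip1 and Hrk gave no value at a mean CPM of at least 5.

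Counts of calls moved more. All genes called numbered 274 with library totals (124 higher and 150 lower, beside 126 and 295), 1729 in DESeq2, 14 with the Rn45s covariate, 0 with the replicate block (1455 at an unadjusted p under 0.05), and from 0 (without control B) to 311 with 1 library left out, 8 of them without control A, 277 without blue B and 11 without blue C. In the execution list the count was 0 with library totals, the replicate block or the Rn45s covariate, 2 at a mean CPM of at least 5, 3 in DESeq2 and 0 to 1 with a library left out. Among partners it was 2 at that mean CPM, in DESeq2 and in limma-voom, 0 with the block and 0 to 1 with a library left out. Among upstream factors it was 1 with DESeq2's size factors, library totals or no filter, 0 with the block or the covariate and 0 to 2 with a library left out. In the death receptor list it was 2 in DESeq2, 0 with the block or the covariate and 0 to 1 with a library left out. For miRNAs it was 32 without a filter (4 of the listed ones), 11 in DESeq2, 9 with the replicate block and 0 to 6 with a library left out. The cause of these shifts was not tested.

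The letters are not stated to pair libraries: deviations of same-lettered mRNA libraries correlated at -0.33 (A) and -0.27 (B). A fit that leaves 1 control assumes that it varies like the blue libraries. The widest 95% intervals among the members were those of Pmaip1 and Bbc3.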

Other observations

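Some genes of the pathway lists outside the 10 members had a library that stood apart, and they were chosen after their values were seen. Mdm2, the ubiquitin ligase that degrades p53 and is itself a p53 target, was at 61.8 and 60.9 CPM in the controls and at 27.2, 59.5 and 25.0 CPM in blue A, B and C (log2FC -0.72, SE 0.38, edgeR adjusted p = 0.426). Blue B was close to the controls and the other two blue libraries were far below. Casp9, the caspase activated on the apoptosome, was at 22.0 and 8.74 CPM in control A and B and at 20.4, 21.1 and 18.2 CPM in the blue libraries, with control B below all others (log2FC 0.37, SE 0.37, edgeR adjusted p = 0.689). Trp73, a relative of p53, was at 0.620 and 0.655 CPM in the controls and at 1.96, 0.550 and 0.703 CPM in blue A, B and C. Trp63, another relative and a marker of surface epithelium, was at 41.1 and 47.5 CPM and at 60.9, 44.0 and 39.0 CPM, highest in blue A as well. The summed corneal epithelium markers, Trp63 among them, were also highest in blue A, at 7804 CPM beside 5975 to 7185 CPM in the other libraries; their part in these values was not tested.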
